A study of Mus musculus with 12 samples.

Results

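The 6 *Gata* factors of the mouse, *Gata1*, *Gata2*, *Gata3*, *Gata4*, *Gata5* and *Gata6*, and the 2 Fog cofactors, *Zfpm1* (also called Fog1) and *Zfpm2* (also called Fog2), were read in *Sox7* (+/-) and *Sox7* (-/-) cells, as ES cells and as XEN-like cells. XEN-like cells are cells that resemble the extraembryonic endoderm of the early embryo. The genes were chosen by name, as all array probes whose gene name is 1 of these symbols, and not by their values. They make up 8 of the 34836 gene names on the array and were read by 10 of its 55681 probes.

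All cells were derived from EB3, a mouse ES cell line, and all carried Gata6GR, a fusion of full-length Gata6 with the ligand-binding domain of the human glucocorticoid receptor, which enters the nucleus when dexamethasone (Dex) is added. *Sox7* (+/-) cells have 1 targeted *Sox7* allele, and *Sox7* (-/-) cells are a line selected from such a heterozygous parent with a high dose of puromycin. ES cells were kept without Dex, XEN-like cells had been given Dex, and RNA of both was taken at day 4, with 3 one-colour Agilent arrays for each of the 4 groups. Each genotype is represented by 1 line, so that a difference between genotypes and a difference between lines cannot be told apart. Whether the 3 arrays of a group came from separate cultures is not stated, and the source labels number each of the *Sox7* (+/-) ES arrays as replicate 1 where their titles run from 1 to 3, so the p-values measure the spread between these arrays, which may be technical.

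Gata factors are zinc finger transcription factors that bind DNA at GATA sequences. *Gata4* and *Gata6* are known for the primitive endoderm and the heart, *Gata5* for endoderm and heart, *Gata1* and *Gata2* for blood cells and *Gata3* for T cells and trophoblast. Fog proteins do not replace Gata factors on DNA but bind to their amino-terminal zinc finger and bring in corepressors such as Ctbp and the Chd4, Mta and Hdac proteins of the NuRD complex.

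The array reads each transcript with oligonucleotide probes of 60 bases, and the results rest on few of them, so the start of each probe behind the main changes is shown, its first 30 bases, 5' to 3'. Positions are those of the array's annotation, on mm9. The *Gata2* probe lies on chromosome 6 from 88156362 to 88156421 on the plus strand, the *Gata3* probe on chromosome 2 from 9779551 to 9779610 on the minus strand and the *Gata4* probe on chromosome 14 from 63817858 to 63817917 on the minus strand. *Zfpm1* was read by 2 probes on chromosome 8, from 124861092 to 124861151 (probe a) and from 124861087 to 124861146 (probe b). These share 55 of their 60 bases and are not independent readings, and capitals mark the 25 shared bases within the part shown.
Gata2: aactgcataagcttaacccgctgatgagtg
Gata3: ttaaggaatatagggggattaaagtatgga
Gata4: tagcttcgaaccaagattctgttgtaatca
Zfpm1 probe a: GCCTGTGGGGCCGCACCACCAGGACccttg
Zfpm1 probe b: agtgaGCCTGTGGGGCCGCACCACCAGGAC

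The promoters of 5 of the 8 genes, with 6 start sites, were found in a RefSeq table on GRCm38.p6. Those of *Gata2*, *Gata3* and *Zfpm1*, the 3 genes with an entry that were called higher with Dex in both genotypes, were chosen by these calls. Shown are the 250 bases before each start of *Gata2* (2 starts, chr6:88193641-88193890 and chr6:88198414-88198663, plus strand), *Gata3* (chr2:9878601-9878850, minus strand) and *Zfpm1* (chr8:122281891-122282140, plus strand). GATA words (AGATAA and TGATAA, as well as AGATAG or TGATAG, on either strand) were in none of the 6 windows of 250 bases of the 5 genes, against 26.5% of all 32851 promoters. GC boxes (GGGCGG on either strand), marked in capitals, were in all 6, against 32.7% of all promoters. These windows are short, and a match or its absence is a description of these letters only.
Gata2 start 1: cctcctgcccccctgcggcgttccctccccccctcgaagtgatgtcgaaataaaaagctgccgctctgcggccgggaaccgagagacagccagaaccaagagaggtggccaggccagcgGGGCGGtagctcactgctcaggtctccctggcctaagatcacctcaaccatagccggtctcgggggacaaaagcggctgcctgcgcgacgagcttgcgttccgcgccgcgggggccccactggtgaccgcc
Gata2 start 2: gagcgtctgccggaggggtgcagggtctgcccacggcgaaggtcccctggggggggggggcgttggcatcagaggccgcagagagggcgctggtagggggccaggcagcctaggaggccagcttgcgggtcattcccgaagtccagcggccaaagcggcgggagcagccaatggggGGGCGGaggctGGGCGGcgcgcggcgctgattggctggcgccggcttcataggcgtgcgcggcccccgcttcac
Gata3: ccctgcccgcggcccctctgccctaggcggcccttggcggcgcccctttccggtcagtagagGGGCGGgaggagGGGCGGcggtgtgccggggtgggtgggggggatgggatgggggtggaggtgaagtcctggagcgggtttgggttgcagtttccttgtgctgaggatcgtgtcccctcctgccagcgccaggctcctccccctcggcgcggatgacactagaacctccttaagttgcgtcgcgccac
Zfpm1: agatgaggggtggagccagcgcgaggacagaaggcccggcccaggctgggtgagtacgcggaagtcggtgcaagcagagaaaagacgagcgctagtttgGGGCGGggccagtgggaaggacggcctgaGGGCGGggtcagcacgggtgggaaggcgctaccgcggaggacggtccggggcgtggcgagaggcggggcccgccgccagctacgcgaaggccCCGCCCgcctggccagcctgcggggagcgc

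Signals are given as multiples of the array's own 75th percentile signal, which lay between 252.3 and 415.9 intensity units, and differences as log2. The array flags a spot as well above background or not, and 41.7% to 52.3% of the spots of an array were. *Sox7*, the targeted gene, failed that flag on all 6 *Sox7* (-/-) arrays, so that its excess in *Sox7* (+/-) cells is a bound, at least 24.7-fold among ES cells and at least 73.6-fold among XEN-like cells. Such bounds, here and later, set the bright group against the lowest signal well above background on each dim array, or against the probe's signal if that was higher still. Of 9 ES cell marker genes, all tested, 6 fell in *Sox7* (+/-) cells and 7 in *Sox7* (-/-) cells with Dex, among them *Nanog* (at least 580.8-fold and at least 1350.5-fold), while *Klf4* rose in *Sox7* (+/-) cells by 1.46. Without *Sox7*, 2 of the 9 were higher in XEN-like cells and 3 in ES cells, and in the difference between the Dex responses 1 was higher and 2 were lower. Of all tested genes, 14.1% fell with Dex in each genotype. Without *Sox7*, 4.15% were higher in XEN-like cells and 1.97% in ES cells, and in the difference 7.05% were higher and 3.16% lower. The arrays lay on 2 slides: *Sox7* (-/-) XEN-like replicate 1 shared slide 1 with the *Sox7* (-/-) ES arrays, and the other 8 were on slide 2. Scaling moved the levels of all genes together. The median log2 difference of all 18992 genes tested with Dex in *Sox7* (+/-) cells was 0.16 as scaled here, -0.32 when the arrays were scaled to spike-in controls and -0.24 in the unscaled table of the authors. In the same order it was 0.07, -0.01 and 0.03 with Dex in *Sox7* (-/-) cells, 0.01, 0.26 and 0.36 between the genotypes as XEN-like cells, 0.11, -0.04 and 0.10 between them as ES cells, and -0.10, 0.31 and 0.25 for the difference between the Dex responses.

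With Dex, *Gata2*, *Gata3*, *Gata4* and *Zfpm1* rose in both genotypes, each in the same direction under all 6 ways of scaling or background correction, though the call for *Gata3* in *Sox7* (+/-) cells was lost under 4 of them. *Gata5* and *Gata6* passed the adjusted p in neither genotype as fitted here. Under alternatives *Gata5* reached a limma adjusted p of 0.035 in *Sox7* (+/-) cells. *Gata6* passed in both genotypes when 1 array was left out. All these changes were under 2-fold. As fitted here, *Gata1* passed the adjusted p in *Sox7* (+/-) cells with a change under 2-fold, and *Zfpm2* was called lower in both genotypes at signals near background. A gene was called at an adjusted p under 0.05 (limma with Benjamini-Hochberg adjustment over all tested probes) and a change of more than 2-fold, and was read by its brightest probe. In *Sox7* (+/-) cells 4 of the 8 genes were called higher and 1 lower, where 11.0% of all tested genes were higher and 14.1% lower. Higher genes were 43.7% of all called genes there, against 19.2% under spike-in scaling and 19.6% in the authors' table. The *Sox7* (-/-) cells again gave 4 and 1, where 14.6% of all tested genes were higher and 14.1% lower. The median log2 difference of the 8 genes was 0.66 against 0.16 for all genes in *Sox7* (+/-) cells, and 1.05 against 0.07 in *Sox7* (-/-) cells. The RNA is that of whole cultures, so fewer cells of a type and less RNA per cell cannot be told apart.

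**Figure D1:**
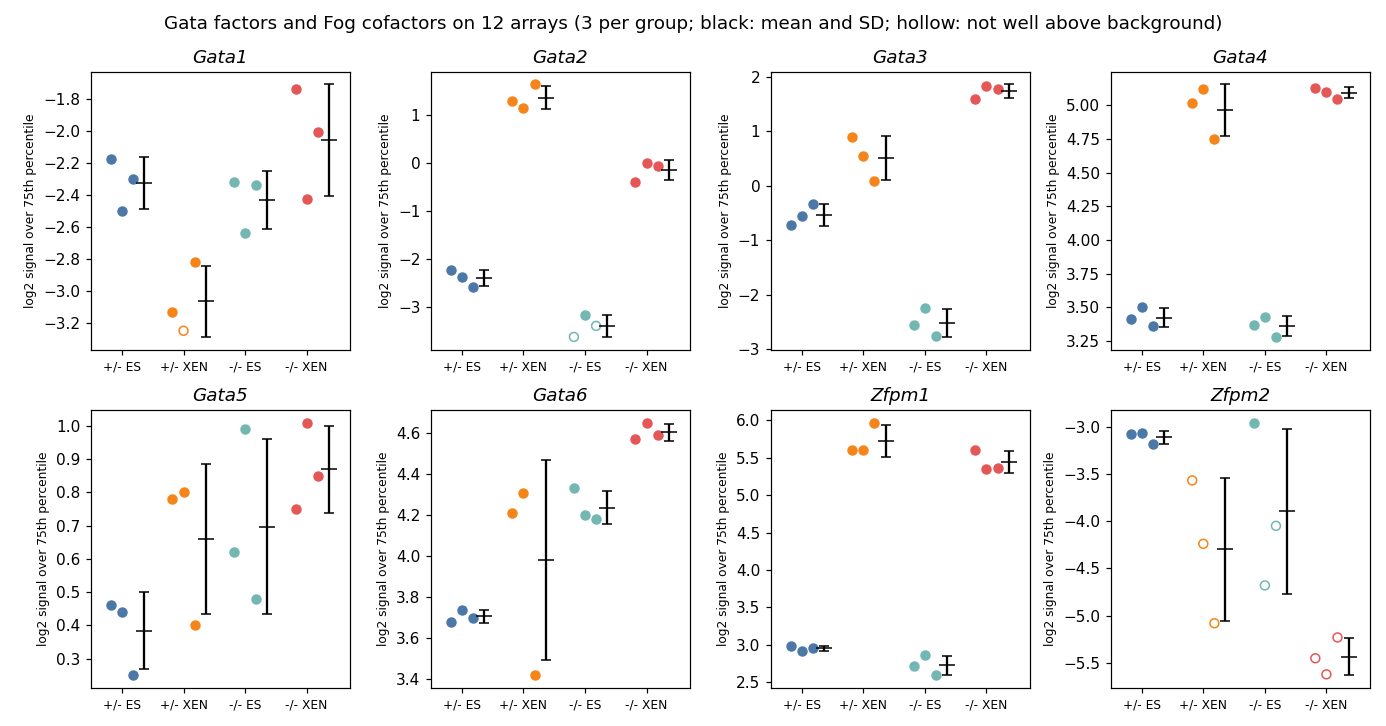
Log2 signal over the array's 75th percentile (vertical axis, a scale of its own for each gene) of the 8 genes on the 12 arrays, by group (horizontal axis, genotype of *Sox7* and ES or XEN-like cells). Points are arrays, hollow where the probe was not well above background, and black marks are the mean and SD of 3 arrays. *Gata2*, *Gata4* and *Zfpm1* are higher in XEN-like than in ES arrays of either genotype, and *Gata3* is lowest in *Sox7* (-/-) ES cells and highest in *Sox7* (-/-) XEN-like cells.

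*Gata4*, a regulator of endoderm genes, was well above background on all 12 arrays, ES cells included. Its signal was 10.6, 11.3 and 10.2 times the 75th percentile in *Sox7* (+/-) ES cells and 32.3, 34.8 and 26.8 times in *Sox7* (+/-) XEN-like cells. The *Sox7* (-/-) arrays read 10.3, 10.8 and 9.70 times without Dex and 35.0, 34.4 and 33.2 times with Dex. Every XEN-like array was above every ES array, and the genotypes overlapped in both states. The log2 rise was 1.54 (standard error 0.10, limma adjusted p = 3.1e-07) or 2.91-fold in *Sox7* (+/-) cells and 1.74 (standard error 0.10, adjusted p = 9.7e-08) or 3.33-fold in *Sox7* (-/-) cells. The *Sox7* (-/-) arrays of slide 1 alone gave 1.77.

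*Gata6*, the factor whose fusion was activated, was read by 1 probe only, so probes could not be compared to tell its own transcript from that of Gata6GR, and whether the probe reads the Gata6GR transcript was not tested. Its signal was 12.8, 13.4 and 13.0 times the 75th percentile in *Sox7* (+/-) ES cells and 18.4, 19.8 and 10.7 times in *Sox7* (+/-) XEN-like cells. Replicate 3 of these XEN-like arrays lay below all 3 ES arrays, the other 2 above them. The signal of *Sox7* (-/-) cells was 20.1, 18.4 and 18.2 times without Dex and 23.7, 25.1 and 24.1 times with Dex, with no overlap. The log2 difference with Dex was 0.27 (95% interval -0.15 to 0.69, limma adjusted p = 0.23) in *Sox7* (+/-) cells and 0.37 (-0.05 to 0.78, adjusted p = 0.11) in *Sox7* (-/-) cells. Both intervals lie below a 2-fold rise. Without *Sox7* (+/-) XEN-like replicate 3 the values were 0.55 (adjusted p = 6.2e-05) and 0.37 (adjusted p = 0.00035). With all arrays, the value in *Sox7* (+/-) cells was -0.21 if scaled to the spike-in controls and -0.22 in the authors' table.

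*Gata5* was well above background on all arrays. Its mean was lowest in *Sox7* (+/-) ES cells and highest in *Sox7* (-/-) XEN-like cells, and in order of the means each group overlapped the next, while the *Sox7* (+/-) ES arrays lay below both *Sox7* (-/-) groups. It ranged from 1.19 to 1.38 times the 75th percentile in *Sox7* (+/-) ES cells, 1.32 to 1.74 in *Sox7* (+/-) XEN-like cells, 1.40 to 1.99 in *Sox7* (-/-) ES cells and 1.68 to 2.01 in *Sox7* (-/-) XEN-like cells. The log2 differences with Dex were 0.27 (95% interval -0.06 to 0.61) and 0.17 (-0.17 to 0.50), and the first of these turned to -0.21 under spike-in scaling and -0.20 in the authors' table. The lowest limma adjusted p under an alternative was 0.035 in *Sox7* (+/-) cells, with a change under 2-fold, and 0.075 in *Sox7* (-/-) cells.

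*Gata2*, a factor of blood stem and progenitor cells, had the largest rise among the 8 genes in *Sox7* (+/-) cells. Its signal there was 0.213, 0.192 and 0.169 times the 75th percentile without Dex and 2.47, 2.23 and 3.12 times with Dex. For *Sox7* (-/-) cells the values were 0.0811, 0.111 and 0.0957 times without Dex, where 1 of 3 arrays was well above background, and 0.761, 0.998 and 0.962 times with Dex. The 4 groups did not overlap: *Sox7* (-/-) ES cells were lowest, followed by *Sox7* (+/-) ES cells, *Sox7* (-/-) XEN-like cells and *Sox7* (+/-) XEN-like cells. The log2 rise was 3.76 (standard error 0.17, limma adjusted p = 2.2e-08) or 13.5-fold in *Sox7* (+/-) cells and 3.24 (standard error 0.17, adjusted p = 5.0e-08) or 9.47-fold in *Sox7* (-/-) cells, and was called under every alternative that tested it, from 2.65 to 3.87 and from 1.93 (with normexp) to 3.36.

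*Gata3*, a factor of T cells and trophoblast, had the largest rise of the 8 genes in *Sox7* (-/-) cells and the smallest called rise in *Sox7* (+/-) cells. It was 0.601, 0.677 and 0.795 times the 75th percentile in *Sox7* (+/-) ES cells and 1.87, 1.46 and 1.06 times in *Sox7* (+/-) XEN-like cells. Without *Sox7* the signal was 0.171, 0.211 and 0.148 times without Dex and 3.01, 3.55 and 3.42 times with Dex. No groups overlapped, and both *Sox7* (+/-) groups lay between the *Sox7* (-/-) groups. The log2 rise in *Sox7* (+/-) cells was 1.05 (standard error 0.20, limma adjusted p = 0.0012), or 2.07-fold, close to the 2-fold threshold. Without *Sox7* (+/-) ES replicate 1 it was 0.96, without *Sox7* (+/-) XEN-like replicate 1 it was 0.85, and it was 0.57 with the spike-in controls, none of which were called. Its rise in *Sox7* (-/-) cells was 4.25 (standard error 0.20, adjusted p = 3.3e-08), or 19.0-fold, and 4.11 on slide 1 alone.

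*Gata1*, the factor of red blood cells and megakaryocytes, was dim on every array. It was 0.221, 0.177 and 0.203 times the 75th percentile in *Sox7* (+/-) ES cells and 0.114, 0.105 and 0.141 times in *Sox7* (+/-) XEN-like cells, where 2 of 3 arrays were well above background. The *Sox7* (-/-) values were 0.200, 0.161 and 0.198 times without Dex and 0.300, 0.185 and 0.248 times with Dex. The *Sox7* (+/-) XEN-like arrays were below all others, and the other groups overlapped. The log2 difference with Dex was -0.74 (95% interval -1.14 to -0.34, limma adjusted p = 0.0051) in *Sox7* (+/-) cells, under 2-fold, and 0.37 (-0.03 to 0.78, adjusted p = 0.096) in *Sox7* (-/-) cells. The former was -1.22 and called with the spike-in controls, and -0.10 with normexp background correction. The latter passed the adjusted p, under 2-fold, with a block for slide (0.69, limma adjusted p = 0.027) or replicate number (0.37, adjusted p = 0.024). It was 0.69 on slide 1 alone, and 0.21 both with normexp (adjusted p = 0.088) and in the authors' table (adjusted p = 0.34).

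*Zfpm1*, the Fog protein that partners Gata1 in red blood cell formation, rose in both genotypes. By probe b its signal was 7.88, 7.57 and 7.77 times the 75th percentile in *Sox7* (+/-) ES cells and 48.5, 48.4 and 62.8 times in *Sox7* (+/-) XEN-like cells. Cells without *Sox7* had 6.53, 7.27 and 6.05 times without Dex and 48.9, 40.9 and 41.1 times with Dex. XEN-like and ES arrays were far apart. The XEN-like arrays of the genotypes overlapped by probe b but not by probe a. The ES arrays of the genotypes did not overlap by either probe. The log2 rise was 2.77 (standard error 0.12, limma adjusted p = 1.9e-08) or 6.82-fold in *Sox7* (+/-) cells and 2.72 (standard error 0.12, adjusted p = 1.6e-08) or 6.59-fold in *Sox7* (-/-) cells, and the slide 1 arrays gave 2.89 for the latter. Probe a gave 2.75 and 2.71. The rise by probe a minus that by probe b, averaged over the genotypes, was -0.017 on the log2 scale (two-sided exact permutation test, p = 0.555 over 400 arrangements, the smallest possible p being 0.005; 1 pair of probes tested).

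*Zfpm2*, the Fog protein known for heart and gonad development, was at or near background. Its brighter probe, on chromosome 15 from 40935115 to 40935174, was well above background on all 3 *Sox7* (+/-) ES arrays (0.110 to 0.119 times the 75th percentile), on 1 of 3 *Sox7* (-/-) ES arrays (0.0389 to 0.129 times) and on none of the XEN-like arrays (0.0295 to 0.0840 times in *Sox7* (+/-) and 0.0203 to 0.0266 times in *Sox7* (-/-) cells). The probe entered the test only through the *Sox7* (+/-) ES arrays, so the filter itself favoured a fall with Dex in those cells. In *Sox7* (+/-) cells the signal was at least 1.23-fold lower with Dex (fitted log2 difference -1.18, limma adjusted p = 0.035). That call was lost without *Sox7* (+/-) ES replicate 1, 2 or 3 (-1.17, -1.16 and -1.22) and without *Sox7* (+/-) XEN-like replicate 2 or 3 (-1.21 and -0.79), and also with quantile normalization, in the authors' table (-0.50) and with normexp background correction (-0.03). Among *Sox7* (-/-) arrays the fitted difference was -1.54 (adjusted p = 0.0096), but the ES signal was not above the background bound of the XEN-like arrays, and no fold is given. On slide 1 alone, with 1 XEN-like array, it was -1.56 and not called, as with normexp (-0.36) and in the authors' table (-0.48). The other probe, from 40935062 to 40935121, was well above background on 1 of 12 arrays and was not tested.

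**Figure D2:**
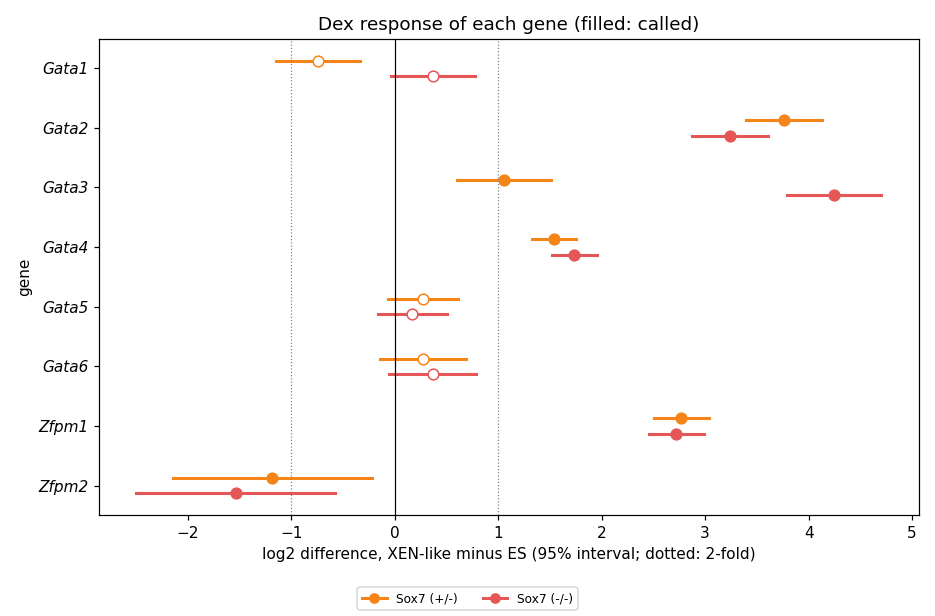
Log2 difference of XEN-like minus ES cells (horizontal axis) with its 95% interval for each gene (vertical axis) in *Sox7* (+/-) cells (orange) and *Sox7* (-/-) cells (red), filled where called, with dotted lines at a 2-fold change. *Gata2* (3.76 and 3.24), *Zfpm1* (2.77 and 2.72) and *Gata4* (1.54 and 1.74) lie beyond 2-fold in both genotypes, and *Gata3* lies at 1.05 and 4.25; *Zfpm2* did not rise above background on any XEN-like array, and *Gata5* and *Gata6* fall below 0 in *Sox7* (+/-) cells with the spike-in controls.

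**Figure D3:**
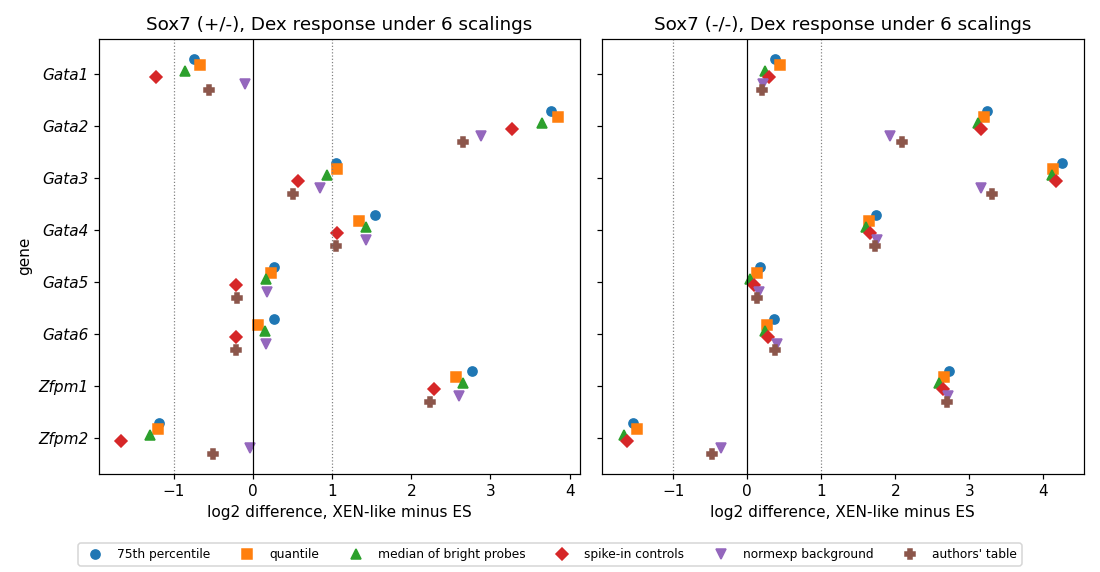
The Dex response of each gene (horizontal axis, log2 difference of XEN-like minus ES cells) in *Sox7* (+/-) cells (left) and *Sox7* (-/-) cells (right) under 6 ways of scaling or background correction (symbols), with dotted lines at 2-fold. *Gata2*, *Gata3*, *Gata4* and *Zfpm1* stay above 0 under all 6, *Gata5* and *Gata6* change sign in *Sox7* (+/-) cells, and *Zfpm2* is near 0 with normexp in *Sox7* (+/-) cells.

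The next question was which of these genes differed between *Sox7* (-/-) and *Sox7* (+/-) XEN-like cells. *Gata3* and *Gata1* were higher and *Gata2* was lower without *Sox7*, so that 2 of 8 genes were called higher and 1 lower, where 4.15% of all tested genes were higher and 3.41% lower. Higher genes were 54.9% of all called genes, against 78.7% under spike-in scaling and 90.7% in the authors' table. *Gata3* was higher by 1.22 on the log2 scale (standard error 0.20, limma adjusted p = 0.0016), or 2.33-fold, and *Gata2* was lower by 2.86-fold (log2 difference -1.52, standard error 0.17, adjusted p = 0.00011). Within slide 2, which held *Sox7* (-/-) XEN-like replicates 2 and 3, these were 1.29 and -1.40, both called. Each call was made under every alternative that tested the gene, from 1.01 to 1.49 for *Gata3* and from -1.62 to -1.01 for *Gata2*, which the filter on all arrays left out. The difference of *Gata1*, 1.01 (standard error 0.18, adjusted p = 0.0024), was 2.01-fold and at the threshold. It was 0.84 within slide 2, 0.25 with normexp, 0.70 in the authors' table, 0.97 and 0.92 without *Sox7* (+/-) XEN-like replicate 1 or 2, and 0.84 and 0.98 without *Sox7* (-/-) XEN-like replicate 1 or 3, and was called in none of these.

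The other 5 genes were not called between the XEN-like cells. *Gata6* was higher by 0.62 (95% interval 0.21 to 1.04, limma adjusted p = 0.028), under 2-fold, with the 3 *Sox7* (-/-) arrays above the 3 *Sox7* (+/-) arrays, by 0.34 without *Sox7* (+/-) XEN-like replicate 3 (adjusted p = 0.0034), and by 1.06 in the authors' table, where it was called. Within slide 2 its difference was 0.64 and missed the adjusted p (limma adjusted p = 0.11), as did the value of 0.64 with the slide as a block (adjusted p = 0.061). *Gata4* differed by 0.13 (-0.08 to 0.35), *Gata5* by 0.21 (-0.13 to 0.54), *Zfpm1* by -0.28 (-0.55 to -0.01, adjusted p = 0.095) and *Zfpm2*, at background in both groups, by -1.14 (adjusted p = 0.065). Without *Sox7* (+/-) XEN-like replicate 3 the last was -1.53, and without *Sox7* (-/-) ES replicate 1 or 2 it was -1.14 in both fits, each called. In the authors' table *Zfpm1* turned to 0.15. There *Gata4* differed by 0.56 (limma adjusted p = 0.0097) and *Gata5* by 0.63 (adjusted p = 0.0055), both under 2-fold, where the median of all tested genes was 0.36.

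Between ES cells, 2 of the 8 genes, *Gata2* and *Gata3*, were called lower without *Sox7* and 0 higher (limma; 1, *Gata6*, at an unadjusted p under 0.05), where 1.97% of all tested genes were higher and 6.63% lower. All *Sox7* (-/-) ES arrays lay on slide 1 and all *Sox7* (+/-) ES arrays on slide 2, so genotype and slide could be separated only through the *Sox7* (-/-) XEN-like arrays, which lay on both. *Gata3* was lower by 3.93-fold (log2 difference -1.97, standard error 0.20, limma adjusted p = 5.3e-05) and by -1.76 with the slide as a block (adjusted p = 0.018). *Gata2* was lower by just over 2-fold (log2 difference -1.001, standard error 0.17, adjusted p = 0.00093), with 1 of the 3 *Sox7* (-/-) ES arrays well above background. With the slide as a block its difference was -0.64 (adjusted p = 0.17), and with normexp it was -0.38 and in the authors' table -0.45, none of them called. It was no longer past 2-fold without *Sox7* (+/-) ES replicate 1 or 2 (-0.92 and -0.995) and without *Sox7* (-/-) ES replicate 1 (-0.89). *Gata6* was higher by 0.53 (95% interval 0.11 to 0.95, adjusted p = 0.042), under 2-fold. With the slide as a block its difference was 0.58 and no longer passed (limma adjusted p = 0.33). It also missed the adjusted p under spike-in scaling (0.37, adjusted p = 0.32) and in the authors' table (0.48, adjusted p = 0.070), but not with normexp (0.47, adjusted p = 0.043). The log2 differences of *Gata1*, *Gata4*, *Gata5*, *Zfpm1* and *Zfpm2* were -0.11, -0.06, 0.31, -0.23 and -0.78 with adjusted p-values from 0.12 to 0.67, and that of *Zfpm2* was -1.25 and called without *Sox7* (-/-) ES replicate 1.

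Whether the Dex response itself differed between the genotypes was then tested directly. *Gata3* rose more in *Sox7* (-/-) cells, by 3.20 on the log2 scale (95% interval 2.55 to 3.84, limma adjusted p = 3.5e-05), and this was called under every alternative that tested it, from 2.31 to 3.60. The response of *Gata1* differed by 1.11 (0.54 to 1.68, adjusted p = 0.010), being -0.74 in *Sox7* (+/-) and 0.37 in *Sox7* (-/-) cells. Without *Sox7* (-/-) XEN-like replicate 1 it was 0.95 and not called, and it was 0.31 with normexp and 0.76 in the authors' table. Thus 2 of 8 genes were called higher and 0 lower, where 7.05% of all tested genes were higher and 3.16% lower, and at an unadjusted p under 0.05 in limma the counts were also 2 and 0. Higher genes were 69.0% of all called genes, against 89.8% under spike-in scaling and 90.0% in the authors' table. For *Gata2* the responses differed by -0.52 (-1.04 to 0.00, adjusted p = 0.13), and by -0.95 with normexp (adjusted p = 0.00047), under 2-fold. For *Gata4*, *Gata5*, *Gata6* and *Zfpm1* the intervals were -0.11 to 0.50, -0.58 to 0.37, -0.50 to 0.69 and -0.43 to 0.33, each inside 2-fold in either direction, and for *Zfpm2* -1.71 to 1.004, and the values of *Gata5*, *Zfpm1* and *Zfpm2* turned from below to above 0 with the spike-in controls. Missing the test does not show that these genes responded alike in the genotypes.

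**Figure D4:**
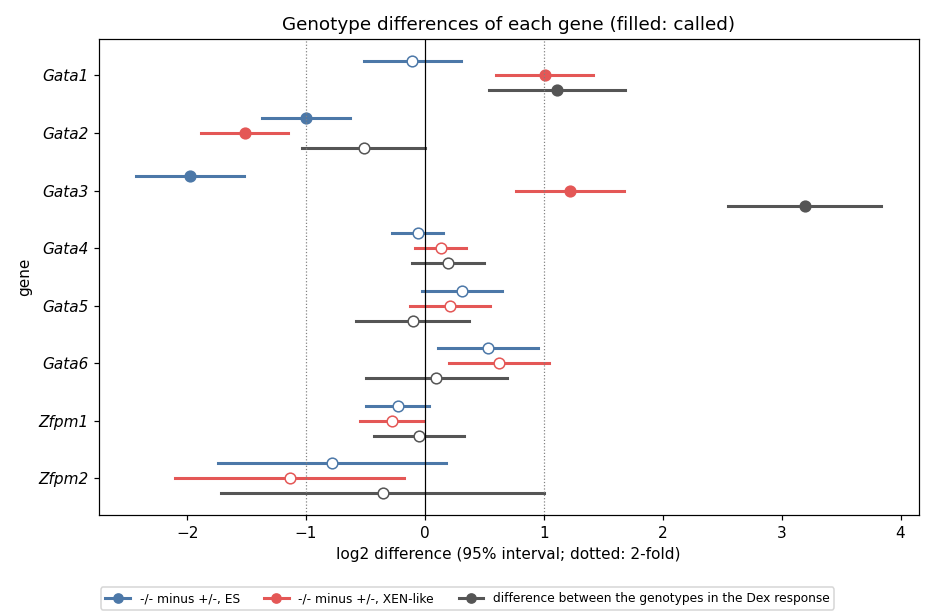
Log2 differences (horizontal axis) with 95% intervals for each gene (vertical axis): *Sox7* (-/-) minus *Sox7* (+/-) ES cells (blue), *Sox7* (-/-) minus *Sox7* (+/-) XEN-like cells (red) and the Dex response of *Sox7* (-/-) cells minus that of *Sox7* (+/-) cells (grey), filled where called. *Gata3* lies at -1.97 in ES cells and 1.22 in XEN-like cells, *Gata2* at -1.001 and -1.52; the intervals of *Gata4* and *Gata5* lie within 2-fold, and the value of *Zfpm1* in XEN-like cells turns positive in the authors' table.

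Known targets and markers of the primitive endoderm, which Gata4 and Gata6 help to activate, were read beside these genes. Of the 18 genes of this list 17 were tested, *Afp* being well above background on no array, and 11 rose and 2 fell with Dex in *Sox7* (+/-) cells and 15 rose and none fell in *Sox7* (-/-) cells, with a median log2 difference of 1.81 and 2.29. *Ttr*, a carrier of thyroid hormone made by visceral endoderm, rose by 2.54 in *Sox7* (+/-) cells, and by at least 67.4-fold in *Sox7* (-/-) cells. *Sox17*, an endoderm transcription factor, rose by 2.46 and 2.41, and *Bmp2*, a secreted signal, by 2.46 and 4.84. *Amn* and *Cubn*, the receptor pair of visceral endoderm, fell by 2.08 and 1.85 in *Sox7* (+/-) cells and rose by 1.53 and 1.82 in *Sox7* (-/-) cells. In the direct test of the difference 7 genes responded more in *Sox7* (-/-) cells, among them *Cubn* (by 3.67), *Amn* (by 3.61) and *Ttr*, which was well above background on no *Sox7* (-/-) ES array, and 1, the deleted *Sox7* itself, responded less. In XEN-like cells 6 were higher and 1 lower without *Sox7*, the latter being *Sox7* itself, and in ES cells 4 were lower, again including *Sox7*. Of all tested genes, 11.0% rose and 14.1% fell with Dex in *Sox7* (+/-) cells, and 14.6% and 14.1% in *Sox7* (-/-) cells. Between XEN-like cells 4.15% were higher and 3.41% lower, between ES cells 1.97% and 6.63%, and in the difference 7.05% and 3.16%. These shares also apply to the counts of the lists that follow.

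Some of the nuclear partners of Gata and Fog proteins changed with Dex. Of 24 tested genes of a list of 25, 2 were called higher and 2 lower in *Sox7* (+/-) cells, where 11.0% and 14.1% of all tested genes were, and 4 higher and 3 lower in *Sox7* (-/-) cells, where 14.6% and 14.1% were. The medians were 0.06 and -0.05, and 12 and 16 of the 24 passed the adjusted p. *Ctbp2*, a corepressor bound by Fog proteins, fell by 1.36 and 1.79 in the 2 genotypes, and *Rbbp7*, a histone-binding protein of NuRD, rose by 1.19 and 1.70. *Lmo4*, an adaptor of the LIM domain type, rose by 1.03 and 1.34, and *Mta3* fell by 1.01 in *Sox7* (+/-) cells. In *Sox7* (-/-) cells *Lyl1*, a bHLH partner in blood cells, fell by 1.88, to a level well above background on 1 of 3 arrays, and *Mbd2*, a methyl-DNA binding protein, rose by 1.38. Between the XEN-like cells 0 partners were called, though 14 had an unadjusted and 10 an adjusted p under 0.05 in limma. In ES cells *Crebbp*, a histone acetyltransferase, was lower (-1.495) and *Lyl1* higher (1.14) without *Sox7*. In the difference between the Dex responses 1 was called, *Lyl1*, which was well above background on no *Sox7* (+/-) XEN-like array.

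Of 8 tested genes of a list of 9 with other zinc fingers of the Gata type, *Trps1*, a repressor of GATA-driven transcription, rose by 1.30 and *Mta3* fell in *Sox7* (+/-) cells. These are 1 higher and 1 lower of 8, near the shares of all tested genes there, 11.0% higher and 14.1% lower. In *Sox7* (-/-) cells, between XEN-like cells and between ES cells 0 were called, with 4, 5 and 4 at an unadjusted p under 0.05 in limma. The response of *Trps1* differed between the genotypes by -1.70 (limma adjusted p = 0.00019).

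Markers of the other cell types in which these factors are known were at different levels. Of 12 blood cell markers, 2 were tested, and *Hbb-bh1*, *Hba-x*, *Hba-a1*, *Alas2* and *Pf4* were well above background on none of the 12 arrays. The summed signal of the list lay between 0.875 and 1.32 times the 75th percentile in all 4 groups, beside the rise of *Gata2*. With Dex 0 were called in either genotype (1 and 0 at an unadjusted p under 0.05 in limma), and likewise 0 in the difference between the responses (0 unadjusted). *Nfe2*, a blood transcription factor, was at least 1.98-fold higher without *Sox7* in ES cells. It was also called higher in XEN-like cells, where it did not exceed the background bound, so no fold is given. Of 12 endothelial and blood progenitor markers 8 were tested, and *Fli1* and *Erg* were well above background on no array. With Dex 1 rose and 1 fell in *Sox7* (+/-) cells, where 11.0% and 14.1% of all tested genes did. In *Sox7* (-/-) cells 1 rose and 5 fell, where 14.6% and 14.1% did. Without *Sox7*, *Cdh5* was lower in XEN-like cells (-1.03) and *Lyl1* higher in ES cells, and 3 genes had a lower Dex response. *Tek*, an angiopoietin receptor, rose by 3.30 and 3.75 and *Cd34* was at least 11.0-fold and at least 19.4-fold lower with Dex, and the summed signal of the list lay between 16.7 and 22.5 in all groups.

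Trophoblast markers were read beside *Gata3*. Of 9 tested genes of a list of 10, 6 fell with Dex in *Sox7* (+/-) cells and 3 in *Sox7* (-/-) cells, 4 were lower without *Sox7* in ES cells and 4 were called higher without *Sox7* in XEN-like cells, of which *Hand1* was well above background on no XEN-like array of either genotype. Of all tested genes, 14.1% fell with Dex in each genotype, 6.63% were lower in ES cells and 4.15% higher in XEN-like cells. The Dex response of 6 of the 9 markers was higher in *Sox7* (-/-) cells by the direct test (7.05% of all tested genes), among them *Ascl2* (by 2.99), *Krt7*, *Cdx2* and *Hand1*. No value is given for the last 3, since among the *Sox7* (+/-) XEN-like arrays *Krt7* exceeded background on 1 of 3 and *Cdx2* and *Hand1* on none. The summed signal of all 10 genes lay from 15.0 to 15.4 times the 75th percentile in *Sox7* (+/-) ES cells, 4.79 to 5.91 in *Sox7* (+/-) XEN-like cells, 9.29 to 9.50 in *Sox7* (-/-) ES cells and 8.43 to 8.75 in *Sox7* (-/-) XEN-like cells. *Elf5* was well above background on no array. *Gata3* rose with Dex in both genotypes while the summed signal fell in both (the median log2 difference of the tested genes was -3.32 and 0.29), and the part of these markers in the values of *Gata3* was not tested.

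Cardiac markers, genes of another tissue of Gata4, Gata6 and Zfpm2, were tested for 6 of 11 genes. With Dex 4 rose and 1 fell in *Sox7* (+/-) cells, where 11.0% and 14.1% of all tested genes did. In *Sox7* (-/-) cells 3 were called higher and 1 lower, where 14.6% and 14.1% were, and of the 3 *Hand2* was well above background on no *Sox7* (-/-) array. *Nkx2-5*, a heart transcription factor, rose by 4.50 in *Sox7* (+/-) cells and responded less in *Sox7* (-/-) cells (difference -3.75, limma adjusted p = 0.00019), and *Hand2* was at least 2.98-fold higher with Dex in *Sox7* (+/-) cells. *Tbx5*, *Mef2c* and *Nppa* were well above background on no array. Between XEN-like cells 3 cardiac genes were lower and 1, *Myl7*, was higher without *Sox7* (by 1.21), and between ES cells 2 were lower. The summed signal of the 11 genes was 2.65 to 2.99 times the 75th percentile in *Sox7* (+/-) ES cells and 5.94 to 8.59 times in *Sox7* (+/-) XEN-like cells, and 1.21 to 1.39 and 2.60 to 3.17 times in *Sox7* (-/-) cells.

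Each gene called in at least 1 comparison was also set beside all other genes by the Pearson correlation of log2 signal over the 12 arrays, as a description without a test, since the arrays share their split into 4 groups. The most like *Gata4* were *Slc35a2* (r = 0.999), *Gnas* (0.998) and *Epb4.1l3* (0.997), and the most like *Zfpm1* were *Msx2* (0.999), *Mkl1* (0.997) and *Ppp2r5b* (0.997). *Gata2* was most like *2900055J20Rik*, *Fam65a* and *Ube2j1* (each 0.995), and *Gata3* most like *DXBay18* (0.994), *Id2* (0.992) and *Abhd6* (0.991). Values for the dim genes were lower: *Gata1* was most like *Cnksr1* (0.906), *Hesx1* (0.904) and *Vil1* (0.901), and *Zfpm2* most like a transcript without a gene symbol (0.931), *Fgf13* (0.931) and *Slc25a40* (0.908).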

How the data were processed

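The authors hybridized RNA of the 4 groups to 12 Agilent arrays of 1 colour, and the deposited intensity values are the output of Agilent Feature Extraction 10.7.3.1, whose processed signal is background-subtracted but not scaled between arrays. The deposited table of the whole series lies within 0.5% of the mean spot signal, so it is neither background-subtracted nor scaled. The deposited flags mark spots as well above background, saturated or outlying. Control spots and 139 to 190 outlier spots per array were left out, and 0 of the latter belonged to the 8 genes. Each array's 75th percentile was subtracted on the log2 scale, and spots of a probe were averaged. A probe entered the test if some group had it well above background on its 3 arrays, which held for 25940 probes (18992 genes). limma 3.58.1 in R 4.3.3 was fitted to all 12 arrays with a mean for each group (prior degrees of freedom 1.987). The thresholds follow the study's methods.

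The genes, lists and tests were chosen with earlier results of these data known. All probes of the 8 genes were reported. From a list, up to 4 called genes with the largest change in a comparison were named, or all if 3 or fewer were called, and then also with their values in other comparisons; genes well above background on no array were named after their values were seen. For each called gene the 3 most correlated genes were named. Alternatives were normexp (offset 50), quantile normalization, scaling to the median of bright probes or to 8 of 10 spike-in probes, the authors' table, no filter, a filter on all 12 arrays, an intensity trend, fits of just the compared arrays, blocks for replicate number or slide, single slides, leaving out each array, any probe of a gene, no minimum fold and, added after the data were seen, outlier spots kept. The scripts were tested on simulated data. Arrays of a group correlated across probes with r from 0.982 to 0.996. Precision is limited by having 3 arrays in a group.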

Additional observations from a re-analysis of the deposited data

Results flagged for a closer look

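The Dex response of 2 of the 8 genes differed between the genotypes by a test of the difference itself. That of *Gata3* was higher by 3.20 on the log2 scale in *Sox7* (-/-) cells (limma adjusted p = 3.5e-05), and the arrays of its 4 groups did not overlap. That of *Gata1* was higher by 1.11 (adjusted p = 0.010), at signals of at most 0.300 times the 75th percentile, and was 0.95 and not called without *Sox7* (-/-) XEN-like replicate 1.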

How the results depend on the processing

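The filter on all 12 arrays left 5 of the 8 genes to test, and the calls were then 3 and 3 with Dex in *Sox7* (+/-) and *Sox7* (-/-) cells, 1 between XEN-like cells, 1 between ES cells and 1 in the difference between the responses. Both normexp and the authors' values gave 3 calls with Dex in *Sox7* (+/-) cells, 1 between ES cells and 1 in the difference, and quantile normalization and the slide block each left 1 between ES cells; the cause was not tested. With an array left out, the calls lay between 3 and 5 with Dex in *Sox7* (+/-) cells and between 1 and 2 both between ES cells and in the difference. Replicate numbers did not pair the samples (deviations of same-numbered arrays correlated from -0.051 to 0.126 over 18 pairs), and a replicate block gave 5, 5, 3, 2 and 2 calls, as did the fit without it. The difference between the *Zfpm1* probes was 0.009 with normexp and 0.006 in the authors' values, and from -0.035 to 0.004 with an array left out. Of 132 counts for the 8 genes under an alternative, 115 lay within 1.5 times the reported count, and of 1083 values for their probes 37 lost and 6 gained a call and 29 changed sign, none of these past the adjusted p in either fit. Over all genes, normexp gave 2780, 3618, 559, 721 and 1138 calls in the 5 comparisons in place of 4763, 5448, 1435, 1634 and 1939, the filter on all arrays 2487, 3171, 725, 666 and 1015, and no minimum fold 12161, 12579, 6702, 8846 and 5468. The authors' values gave 820 between ES cells, and no filter 3364 in the difference. Signals near background limit the values of *Zfpm2*, *Gata1* and, in *Sox7* (-/-) ES cells, *Gata2*.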
